A study of Arabidopsis thaliana with 4 samples.

Results

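The core hypoxia and fermentation genes of *A. thaliana* were followed through the Al-stress microarray experiment as a list of 41 loci. The list holds the fermentation enzymes, the regulators and oxygen sensors of the low-oxygen response, and loci of the core set that is induced by hypoxia in many cell types. The loci were chosen by name, through the RefSeq or AGI identifier of their probes, and the rule uses no measured value. All 41 loci had a probe among 25482 loci on the array, and all 41 were among the 21233 loci left by a filter on dim probes. The 41 loci carried 67 probes, and each locus is given by its brightest probe. The first digit of a locus identifier such as AT5G10040 is its chromosome.

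Plants ferment when oxygen is too scarce for respiration. Sucrose synthase and glycolysis feed pyruvate to pyruvate decarboxylase, and alcohol dehydrogenase reduces the acetaldehyde to ethanol, which returns NAD+ to glycolysis. The programme is switched on by the group VII ethylene response factors (ERF-VII), which plant cysteine oxidases (PCOs) mark for breakdown through the N-degron pathway while oxygen is present. Several of the targets act as brakes on the same programme, among them the PCOs themselves and the trihelix factor HRA1.

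The plants were the Col-0 ecotype, wild type, and the *AvSAMS1* TF line, a Col-0 derivative that carries the S-adenosyl methionine synthetase cDNA of the grass *Andropogon virginicus* behind the constitutive CaMV 35S promoter. The methods name a line, TF6, for both of its arrays, so that the transgenic group would be 1 transformant, whereas the series design text can be read as more than 1 line. The array was designed for *A. thaliana* genes, and the expression of the grass transgene was not checked here. All plants were about 3 weeks old, and Al was given for 2 days, as 300 mM in the labels and in micromolar units in the methods. The labels give the untreated plants of replicate 1 of both lines as sampled at 0 d and those of replicate 2 at 2 d. By these labels, Al and the time between samplings cannot be told apart in a ratio of replicate 1. Al response below means the ratio of Al-treated over untreated plants, with this limit. Each of 4 arrays held cRNA of Al-treated plants (Cy5) against untreated plants (Cy3) of the same line, with 2 arrays per line from different pools of plants, and the dyes were never exchanged.

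The values are of 2 kinds. The relative fold (+Al/−Al) of a gene is given as the log2 ratio of Cy5 over Cy3 from the scanner software, where 1 is a 2-fold difference. The level of a gene in untreated or Al-treated plants is the log2 normalized signal of that channel, and levels are compared only between samples, never between genes. In whole plants, less RNA per cell and fewer cells of a type cannot be told apart.

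The arrays differed in quality and did not run the same way. In Cy3, 62.1% of the probes were well above background in *AvSAMS1* TF replicate 1 and 68.6% in Col-0 replicate 1, against 77.5% and 77.9% in replicate 2 of Col-0 and *AvSAMS1* TF. The replicate 2 arrays of both lines shared 1 slide, and those of replicate 1 were on a slide each. Over the 25775 probes that passed the background flag in both dyes on all 4 arrays, the log2 ratios of *AvSAMS1* TF replicate 1 correlated with those of *AvSAMS1* TF replicate 2 at −0.28 and with those of Col-0 replicate 2 at −0.33 (−0.16 and −0.17 over all probes), while both replicate 2 arrays correlated with each other at 0.83. Over the same probes, Col-0 replicate 1 correlated with *AvSAMS1* TF replicate 1 at 0.08 (0.26 over all probes). With replicate 2 of Col-0 and *AvSAMS1* TF it correlated at 0.48 and 0.46 (0.31 and 0.28 over all probes). These correlations are across probes, which are not independent replicates, and the direction of the ratios follows the dyes stated in the methods. Every result below is therefore given array by array.

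On the arrays of replicate 1, most of the 41 genes were higher in Al-treated than in untreated plants, the latter sampled at 0 d by the labels. In *AvSAMS1* TF replicate 1, 23 of 41 genes (56.1%) were past 2-fold higher, where 18.1% of all loci were, and 2 genes were past 2-fold lower (11.1% of all loci). Among those higher, *HRE2*, AT5G10040, *FTM1*, AT5G66985, AT5G45960 and AT2G17850 were not well above background in the untreated channel of that array, so that their ratios are not measured sizes. In Col-0 replicate 1, 13 of 41 genes were past 2-fold higher, where 11.8% of all loci were, and 1 gene was past 2-fold lower (9.77% of all loci). On the arrays of replicate 2 this was not so. In Col-0 replicate 2, 5 genes were past 2-fold higher (8.45% of all loci) and 12 past 2-fold lower (7.67% of all loci), and in *AvSAMS1* TF replicate 2 these numbers were 4 (7.79%) and 7 (6.47%). Among those higher, AT5G10040 was not well above background in untreated plants on either array. *HRE2* was well above background in neither channel of Col-0 replicate 2. These ratios are not measured sizes either. Counted at any size, 31 and 33 of the 41 genes were higher on the replicate 1 arrays of Col-0 and *AvSAMS1* TF (53.5% and 52.4% of all loci), against 17 and 15 on those of replicate 2 (48% and 48.8% of all loci). The median log2 ratio of the 41 genes was 0.81 and 1.31 on the replicate 1 arrays of Col-0 and *AvSAMS1* TF, and −0.14 and −0.19 on those of replicate 2, with medians over all loci between −0.02 and 0.05. The log2 ratios of the 2 arrays had opposite signs for 26 of 41 genes in Col-0 (34.4% of all loci) and for 28 of 41 in *AvSAMS1* TF (60.1% of all loci).

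**Figure D1:**
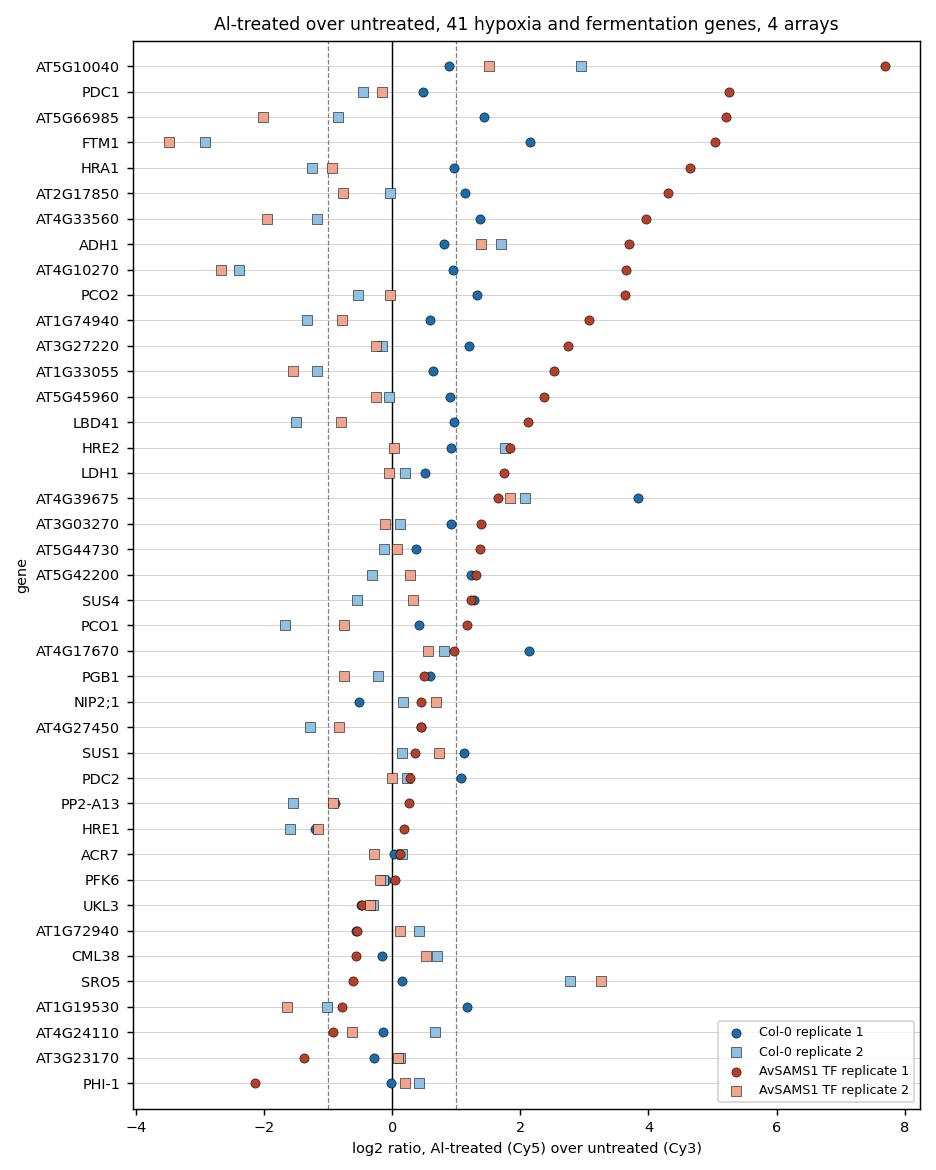
Log2 ratio of Al-treated over untreated plants (horizontal axis) of each of the 41 genes (rows, ordered by *AvSAMS1* TF replicate 1) on the 4 arrays, with circles for replicate 1, squares for replicate 2 and dashed lines at 2-fold. *AvSAMS1* TF replicate 1 reached 7.69 for AT5G10040, whose untreated channel was not well above background there, whereas many squares lie left of 0, down to −3.49 for FTM1 in *AvSAMS1* TF replicate 2.

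With limma, no probe among the 34740 tested passed an adjusted p of 0.05 for the Al response of Col-0, that of *AvSAMS1* TF or the difference of both, so none of the 41 genes did (0% of the probes in each). At an unadjusted p under 0.05, 2618 probes (7.54%) passed in Col-0 and 1209 (3.48%) in *AvSAMS1* TF, with 4 and 3 of the 41 genes among them, and the difference had 336 probes (0.967%) and 0 of the 41 genes. The 4 genes in Col-0 were AT4G17670 and AT4G39675, which were higher, and HRE1 and PP2-A13, which were lower. The 3 genes in *AvSAMS1* TF were ADH1, AT5G10040 and AT4G39675, all higher. With the replicate number as a block, 5 of the 41 genes passed the unadjusted p in Col-0 (11.8% of the probes) and 8 in *AvSAMS1* TF (9.48% of the probes). The lowest limma adjusted p of the 41 genes was 0.655 in Col-0, while it was 0.991 in *AvSAMS1* TF and 0.999 for their difference. On all 4 arrays, 6 of the 41 genes were higher at any size (11.2% of all loci) and 1, *UKL3*, was lower (9.71% of all loci). Of these 6, *HRE2* and AT5G10040 had channels not well above background on some arrays.

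Past 2-fold higher on both arrays of a line were 1 gene in Col-0, AT4G39675, where 3.68% of all loci were, and 3 genes in *AvSAMS1* TF, ADH1, AT5G10040 and AT4G39675, where 0.952% of all loci were. AT5G10040 was not well above background in untreated plants on either of these arrays, and with normexp and loess the 3 genes were 2. Past 2-fold lower on both arrays was HRE1 in Col-0 (2.45% of all loci) and none of the 41 in *AvSAMS1* TF (1.45% of all loci). AT4G39675, a core hypoxia locus of no assigned role here, was the gene past 2-fold higher on all 4 arrays, as were 0.433% of all loci, and none of the 41 was past 2-fold lower on all 4 (0.419% of all loci). Its log2 ratio was 3.83 and 2.08 in replicates 1 and 2 of Col-0 (2.95 ± 1.24, SD, n = 2), against 1.66 and 1.84 in those of *AvSAMS1* TF (1.75 ± 0.13). Both arrays of Col-0 lay above both of *AvSAMS1* TF, and the difference of −1.21 (SE 0.71) had an adjusted p of 0.999 with limma. In untreated plants its level was 9.50 and 9.53 in Col-0, against 11.46 and 10.76 in *AvSAMS1* TF, a gap of over 2-fold that 1.54% of all loci had, and in Al-treated plants 13.03, 11.51, 13.05 and 12.58 in the same order. The untreated difference had an adjusted p of 0.386 with limma, and of 0.109 with the replicate number as a block.

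Among the fermentation enzymes, *ADH1* (AT1G77120), alcohol dehydrogenase, was higher in Al-treated plants on every array. Its log2 ratio was 0.81 and 1.70 in replicates 1 and 2 of Col-0 (1.26 ± 0.63, SD, n = 2, limma adjusted p = 0.716). On the arrays of *AvSAMS1* TF it was 3.69 and 1.38 (2.54 ± 1.64, limma adjusted p = 0.991). The largest ratio did not stand on the highest Al-treated level. The level of *ADH1* in untreated plants was 14.33 in Col-0 replicate 1, 10.21 in Col-0 replicate 2, 9.94 in *AvSAMS1* TF replicate 1 and 9.59 in *AvSAMS1* TF replicate 2, and in Al-treated plants it was 15.05, 11.88, 13.50 and 10.94. Untreated Col-0 of replicate 1 thus lay above both Al-treated samples of replicate 2 and above Al-treated *AvSAMS1* TF of replicate 1. Its 3 probes gave the same signs on all arrays.

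*PDC1* (AT4G33070), a pyruvate decarboxylase, showed the widest gap between arrays of a line among the enzymes. Its log2 ratio was 0.48 and −0.45 in Col-0, against 5.25 and −0.16 in *AvSAMS1* TF, so that the mean of 2.55 in *AvSAMS1* TF had an SD of 3.82. In Al-treated plants its level was 10.66 and 11.50 in replicate 1 of Col-0 and *AvSAMS1* TF, and 6.91 and 6.86 in replicate 2. In untreated plants it was 10.28 in Col-0 replicate 1 and between 6.82 and 7.66 in the other samples. The isoform *PDC2* (AT5G54960) had log2 ratios of 1.07, 0.23, 0.27 and −0.00 in the order Col-0 replicates 1 and 2 and *AvSAMS1* TF replicates 1 and 2. Its dimmer probes gave −0.10 and −0.12 in Col-0 replicate 2 and the same signs as the brightest on the other arrays. The ratios of *PDC2* were higher in replicate 1, as for *PDC1*, but its levels went the other way between replicates. Its Al-treated level was 13.46 and 13.59 in replicate 1 of the 2 lines and 14.07 and 14.53 in replicate 2. Cross-hybridisation between isoforms was not tested.

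The lactate dehydrogenase gene *LDH1* (AT4G17260) had log2 ratios of 0.52, 0.20, 1.74 and −0.05 in the same order of arrays. Its dimmer probe gave 0.58, −0.06, 0.98 and −0.03. The sucrose synthases, which feed sucrose into glycolysis, had log2 ratios of 1.13, 0.16, 0.35 and 0.73 for *SUS1* (AT5G20830) and 1.27, −0.55, 1.22 and 0.32 for *SUS4* (AT3G43190). For *SUS1*, a dimmer probe gave 2.48 in *AvSAMS1* TF replicate 1, and its sign was the same on all arrays. *SUS4* was lower in *AvSAMS1* TF in both channels, as within each replicate were also *ADH1* and AT5G66985 among others. In untreated plants its level was 9.39 and 10.47 in Col-0, against 7.94 and 8.40 in *AvSAMS1* TF, and in Al-treated plants 10.54 and 9.96 against 8.83 and 8.73. For *SUS4* both arrays of Col-0 lay above both of *AvSAMS1* TF in either channel, and for Al-treated plants the gap exceeded 2-fold, as for 0.971% of all loci. The adjusted p was 0.506 for untreated and 0.221 for Al-treated plants with limma, and 0.0885 for untreated plants with the replicate number as a block.

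**Figure D2:**
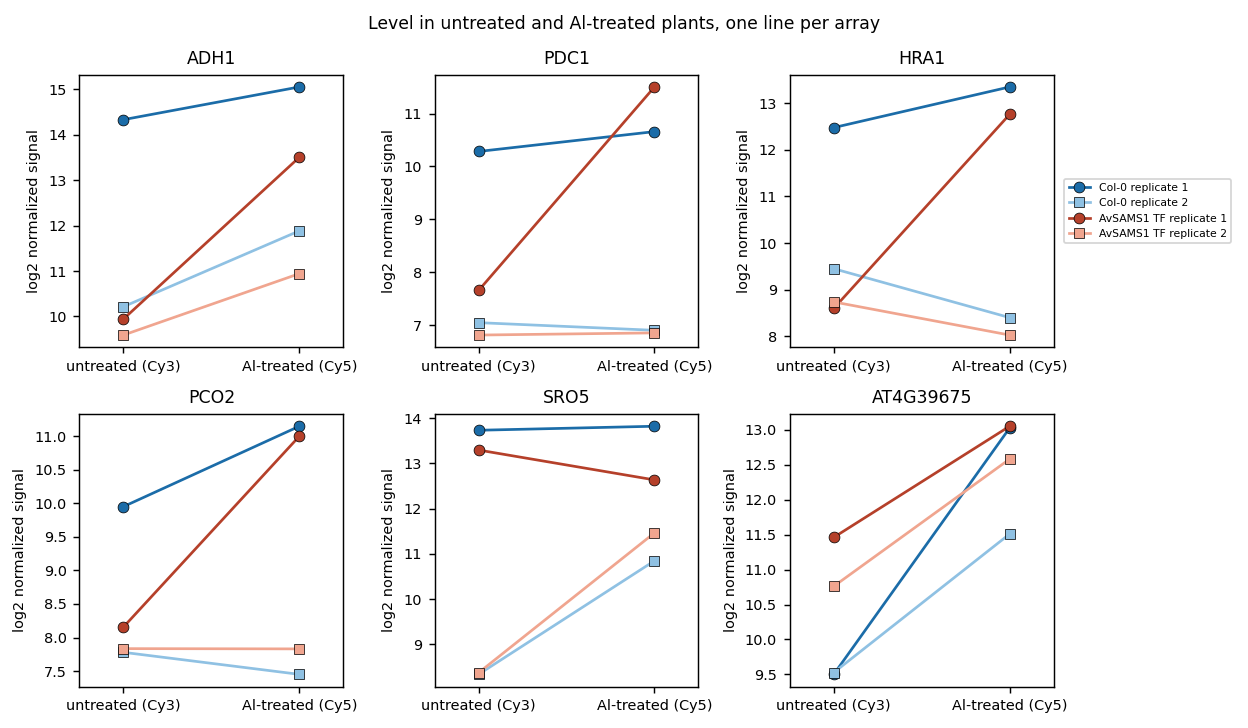
Log2 normalized signal (vertical axis, a scale per gene) of 6 genes in untreated and Al-treated plants, with a line for each array. For ADH1, PDC1, HRA1 and PCO2, the steep line of *AvSAMS1* TF replicate 1 starts near the replicate 2 samples and ends above both of them, SRO5 is high in untreated plants of replicate 1, and AT4G39675 is higher in Al-treated plants on all 4 arrays.

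The 7 regulators and oxygen sensors had a median difference between replicates 1 and 2 of 3.38 on the log2 scale in Al-treated plants. *HRA1* (AT3G10040), a trihelix repressor that dampens ERF-VII activity, had log2 ratios of 0.96 and −1.25 in Col-0, against 4.64 and −0.94 in *AvSAMS1* TF. Its Al-treated level was 13.35 and 12.76 in replicate 1 of Col-0 and *AvSAMS1* TF and 8.40 and 8.03 in replicate 2, which is a 28.6-fold difference between replicates (log2 4.84, SE 0.31). The unadjusted p was 7.21e-05 and the adjusted p 0.272 (limma). In untreated plants its level was 12.48 in Col-0 replicate 1 and 8.60 in *AvSAMS1* TF replicate 1, with 9.45 and 8.74 in replicate 2.

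The PCOs oxidise the N-terminal cysteine of ERF-VII factors. *PCO1* (AT5G15120) had log2 ratios of 0.42, −1.67, 1.17 and −0.76 and *PCO2* (AT5G39890) of 1.32, −0.54, 3.64 and −0.03, in the order Col-0 replicates 1 and 2 and *AvSAMS1* TF replicates 1 and 2. The Al-treated level of *PCO2* was 7.45 and 7.83 in replicate 2 of Col-0 and *AvSAMS1* TF and higher in replicate 1 by 13.0-fold and 9.01-fold, or 10.8-fold over both lines, and that of *PCO1* differed 10.2-fold. *LBD41* (AT3G02550), a LOB-domain factor of the core set, had log2 ratios of 0.96, −1.51, 2.12 and −0.80. Its Al-treated levels were nearly the same in both lines, 11.81 and 11.89 in replicate 1 and 8.45 and 8.49 in replicate 2.

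*PGB1* (*HB1*, AT2G16060), the class 1 phytoglobin that scavenges nitric oxide, had small ratios, 0.59, −0.23, 0.49 and −0.76, although its levels moved widely. In Al-treated plants the level was 15.30 and 13.83 in replicate 1 against 11.09 and 10.85 in replicate 2, and in untreated plants 14.84 and 13.40 against 11.28 and 11.52. Replicate 1 was thus higher with and without Al, by 12.1-fold (adjusted p = 0.371, limma) and 6.59-fold (adjusted p = 0.200, limma). The ERF-VII gene *HRE1* (*ERF73*, AT1G72360), a hypoxia-inducible activator of the programme, did not follow the rest. Its log2 ratio was −1.21 and −1.59 in Col-0, against 0.18 and −1.16 in *AvSAMS1* TF, and its untreated level stayed between 11.06 and 11.24 in all 4 samples. The other inducible ERF-VII gene, *HRE2* (*ERF71*, AT2G47520), had ratios of 0.91, 1.76, 1.84 and 0.03 but was well above background in only 2 of 4 untreated and 3 of 4 Al-treated samples.

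Among the remaining loci of the core set, the widest ratios again belonged to *AvSAMS1* TF replicate 1. AT5G10040, a hypoxia-responsive locus of no assigned role here, had log2 ratios of 0.88, 2.95, 7.69 and 1.51. In untreated plants it was well above background in Col-0 replicate 1 alone, so that the ratios of the other 3 arrays have no measured denominator. For *AvSAMS1* TF the bound is at least 5.67-fold higher in Al-treated plants, from the means of both arrays, where the untreated mean is the signal of the probe itself, which exceeded the lowest signal well above background on each array. The bound rests on replicate 1, since in replicate 2 the untreated and Al-treated levels were 6.32 and 6.67. Its Al-treated level was 12.40 and 12.01 in replicate 1 of the 2 lines and 6.58 and 6.67 in replicate 2, which is 47.7-fold (unadjusted p = 1.34e-05, adjusted p = 0.232, limma).

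*FTM1* (*SAD6*, AT1G43800), a stearoyl-acyl carrier protein desaturase, had log2 ratios of 2.15 and −2.92 in Col-0, against 5.04 and −3.49 in *AvSAMS1* TF. Its untreated level was 10.91 in Col-0 replicate 1, 7.35 in *AvSAMS1* TF replicate 1, and 8.14 and 8.40 in replicate 2 of Col-0 and *AvSAMS1* TF. AT4G10270, AT4G33560, AT5G66985 and AT1G33055 had the same form. The log2 ratios of AT4G10270 were 0.95, −2.40, 3.65 and −2.67 and those of AT4G33560 were 1.37, −1.18, 3.96 and −1.95. For AT5G66985 they were 1.43, −0.85, 5.21 and −2.02, and for AT1G33055 0.63, −1.18, 2.52 and −1.55. On both arrays of replicate 2, Al-treated plants were lower than untreated plants for these 5 genes. In untreated *AvSAMS1* TF replicate 1, *FTM1* and AT5G66985 were not well above background, so that their ratios of 5.04 and 5.21 have no measured denominator. The Al-treated level of AT4G10270 differed 64.9-fold between replicates 1 and 2, the largest value of the 41 genes, with 14.68 and 13.71 against 8.32 and 8.03 (adjusted p = 0.272, limma).

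AT2G17850 had log2 ratios of 1.13, −0.04, 4.30 and −0.78, and AT3G27220 of 1.20, −0.16, 2.74 and −0.25. The 4.30 of AT2G17850 has no measured denominator either, and its second probe gave 5.99 on that array and −2.42 in *AvSAMS1* TF replicate 2. For AT1G74940 they were 0.59, −1.33, 3.07 and −0.78. AT5G45960, with 0.90, −0.06, 2.37 and −0.26, was dim, its level lying between 6.02 and 7.01 in all 8 samples, and not well above background in untreated plants of replicate 1. AT1G19530 was an exception, since in *AvSAMS1* TF replicate 1 its untreated level was the highest of the 8 samples, at 16.01, and the ratios were 1.17, −1.02, −0.78 and −1.65.

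*SRO5* (AT5G62520), a protein similar to RCD1 that is known from oxidative and salt stress, had higher ratios in replicate 2, as had AT3G23170, *PHI-1*, *CML38*, *UKL3* and AT1G72940. Its log2 ratio was 0.16 and 2.78 in Col-0, against −0.62 and 3.25 in *AvSAMS1* TF, so that the arrays of replicate 2 were high. Its untreated level was 13.73 and 13.30 in replicate 1 against 8.34 and 8.38 in replicate 2, a 35.7-fold difference (unadjusted p = 3.01e-05, adjusted p = 0.154, limma). *PHI-1* (*EXL1*, AT1G35140), an EXORDIUM-like protein, had ratios of −0.02, 0.41, −2.15 and 0.20 and untreated levels of 16.39 and 17.27 in replicate 1 against 12.00 and 13.43 in replicate 2. *CML38* (AT1G76650), a calmodulin-like calcium sensor, had ratios of −0.16, 0.70, −0.57 and 0.53, and its untreated level differed 4.04-fold between replicates in the same direction.

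The last 14 genes of the list, *CML38* among them, had log2 ratios between −0.90 and 2.13 in Col-0 replicate 1, between −1.55 and 0.81 in Col-0 replicate 2, between −1.38 and 1.38 in *AvSAMS1* TF replicate 1 and between −0.93 and 0.68 in *AvSAMS1* TF replicate 2. In the order Col-0 replicates 1 and 2 and *AvSAMS1* TF replicates 1 and 2, AT4G17670 had 2.13, 0.81, 0.97 and 0.56, and was higher on all 4 arrays. *UKL3* (AT1G55810), a uridine kinase-like protein, was lower on all 4 arrays, with −0.49, −0.30, −0.47 and −0.35. *PP2-A13* (AT3G61060), a phloem protein 2-like gene, had −0.90, −1.55, 0.26 and −0.93, so that *AvSAMS1* TF replicate 1 was the array apart, as for *HRE1*. The universal stress protein-like gene AT3G03270 had 0.92, 0.13, 1.38 and −0.12, AT5G42200 had 1.23, −0.32, 1.31 and 0.27, and AT5G44730 had 0.37, −0.13, 1.37 and 0.07. These 3 were higher on both arrays of replicate 1 than on both of replicate 2, as was AT4G27450 with 0.44, −1.29, 0.44 and −0.84.

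At its brightest probe, *PFK6* (AT4G32840), a phosphofructokinase of glycolysis, stayed between −0.19 and 0.04 on the 4 arrays. *ACR7* (AT4G22780), an ACT-domain repeat protein, stayed between −0.28 and 0.16 at its brightest probe. Their dimmer probes did not stay as flat. In the same order of arrays, these gave 0.09, −0.51, 1.34 and −0.72 for *PFK6* and −0.59, 0.33, −0.75 and −0.06 for *ACR7*. AT3G23170 had −0.29, 0.12, −1.38 and 0.08, AT1G72940 had −0.56, 0.42, −0.55 and 0.11, and AT4G24110 had −0.15, 0.67, −0.93 and −0.63. For each of these 3 genes the lower array of a line was that of replicate 1. The aquaporin gene *NIP2;1* (AT2G34390), known as strongly induced by low oxygen in roots, was not well above background in any untreated sample nor in Al-treated Col-0. It was well above background in both Al-treated samples of *AvSAMS1* TF, at a bound of at least 1.09-fold.

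The levels of the 8 samples separate the 2 channels of each ratio. In Al-treated plants, 28 of the 41 genes had both replicate 1 samples above both replicate 2 samples (20.8% of all loci) and 2 had the reverse (24.4% of all loci). Of the 41 genes, 22 had both replicate 1 samples above both replicate 2 samples by over 2-fold, where 1.48% of all loci did, and 1 gene, AT4G17670, had the reverse (0.966% of all loci). At an unadjusted p under 0.05, 24 of the 41 genes were higher in replicate 1 and 2, *PDC2* and AT4G17670, were lower, where 10.5% of the 34740 probes passed in either direction. No probe passed an adjusted p of 0.05 (0%), and the lowest adjusted p of the 41 genes was 0.232 (limma). The median difference between replicates was 1.97 on the log2 scale over the 41 genes, against −0.04 over all loci. It was present in each line, with a median of 2.15 in Col-0 and 1.46 in *AvSAMS1* TF. Past 2-fold higher in replicate 1 were 27 of the 41 genes in Col-0 (5.76% of all loci) and as many in *AvSAMS1* TF (6.54%), and past 2-fold lower 2 (5.73%) and 1 (7.37%). With each array left out in turn, the median difference of the 41 genes lay between 1.51 and 2.20, against −0.04 to −0.02 over all loci.

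**Figure D3:**
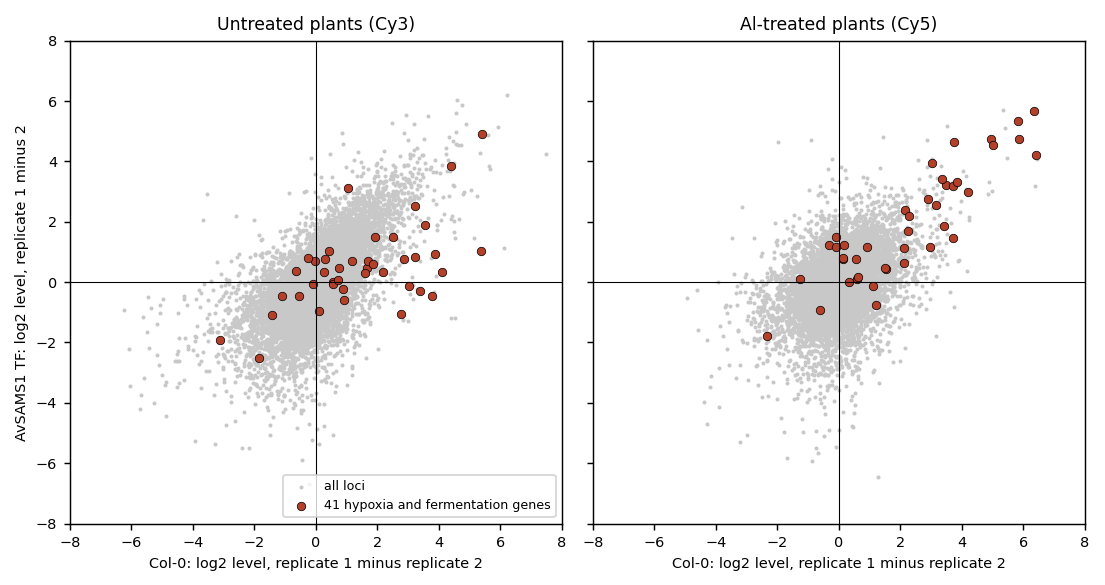
Log2 level of replicate 1 minus replicate 2 in Col-0 (horizontal axis) and in *AvSAMS1* TF (vertical axis) for the 41 genes (red) and all loci (grey), in untreated (left) and Al-treated plants (right). In Al-treated plants most red points lie at the upper right, with medians of 2.15 and 1.46, while in untreated plants many lie to the right of 0 in Col-0 but near 0 in *AvSAMS1* TF, with medians of 1.17 and 0.36.

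In untreated plants the gaps between replicates were counted within each line, and their difference between the lines was not tested. In Col-0, 22 of the 41 genes were past 2-fold higher in replicate 1 than in replicate 2 (7.53% of all loci) and 4 were past 2-fold lower (7.88% of all loci). In *AvSAMS1* TF, 9 were past 2-fold higher (10.1% of all loci) and 4 past 2-fold lower (11.9% of all loci). Over both lines, 20 of the 41 genes had both untreated samples of replicate 1 above both of replicate 2 (24.7% of all loci) and 4 had the reverse (26.1%). By over 2-fold these were 7 (3.49% of all loci), namely *PGB1*, *PCO1*, AT5G10040, AT4G24110, *SRO5*, *PHI-1* and *CML38*, and 2 (2.53%), AT4G17670 and AT1G74940. Within replicate 1, 19 of the 41 genes were past 2-fold lower in untreated *AvSAMS1* TF than in untreated Col-0 (11.5% of all loci), among them *ADH1*, *PDC1*, *HRA1*, *PCO2* and *LBD41*, and 3 were past 2-fold higher (7.99% of all loci). Within replicate 2, 1 gene, *SUS4*, was past 2-fold lower (3.68% of all loci) and 5 were past 2-fold higher (4.48% of all loci). Each of these is a comparison of 2 samples, without a test.

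In Al-treated plants the lines were compared in the same way. Within replicate 1, *AvSAMS1* TF was past 2-fold below Col-0 for 9 of the 41 genes (7.94% of all loci) and past 2-fold above it for 4 (7.74% of all loci), and within replicate 2 these numbers were 4 (3.64%) and 3 (4.34%). With limma, 74 probes (0.213%) passed an adjusted p of 0.05 between the lines in untreated plants and 228 (0.656%) in Al-treated plants, and none of the 41 genes was among them. With the replicate number as a block, which the labels tie to an experiment, 367 probes passed in untreated plants and again none of the 41 genes. With any array left out, no probe passed in either channel. At an unadjusted p under 0.05, 3 of the 41 genes passed in untreated plants, AT4G39675, *SUS4* and AT5G66985 (7.28% of the probes), and 1 in Al-treated plants, *SUS4* (8.66% of the probes). With the replicate number as a block these were 13 (18.1% of the probes) and 7 (13.5% of the probes). In untreated plants both samples of *AvSAMS1* TF lay above both of Col-0 for 3 of the 41 genes (14.3% of all loci) and below both for 7 (21.8%, none by over 2-fold, as did 0.81% of all loci). In Al-treated plants these numbers were 5 (16.7%, none by over 2-fold, as did 1.55% of all loci) and 1 (18.7%). For the ratio they were 2 (15.6%) and 2 (11.3%), none by over 2-fold, as did 0.198% and 0.419% of all loci.

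**Figure D4:**
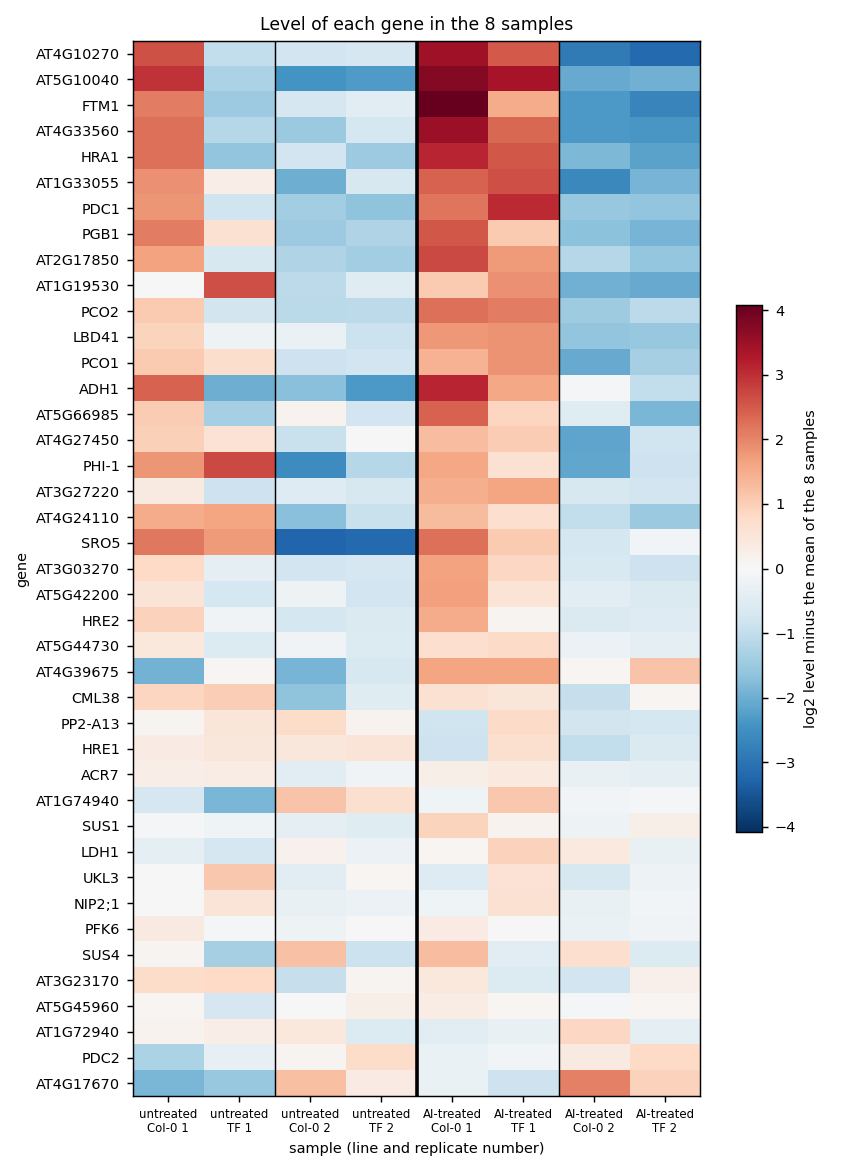
Log2 level of each of the 41 genes (rows, ordered by the Al-treated difference between replicates) in the 8 samples (columns, by treatment, replicate and line), after subtraction of the mean of the 8 samples of that gene. High levels of the upper rows are seen in Al-treated plants of replicate 1 of both lines and in untreated Col-0 replicate 1, while untreated *AvSAMS1* TF replicate 1 lies nearer to the replicate 2 samples, as for ADH1 with 9.94 against 14.33 in Col-0.

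Both replicate 1 arrays had a higher log2 ratio than both replicate 2 arrays for 26 of the 41 genes (29.2% of all loci), by over 2-fold for 13 (5.58%), and the reverse held for 6 (24.3%), by over 2-fold for *SRO5* alone (4%). The Al response differed between replicates for 20 of the 41 genes at an unadjusted p under 0.05, 17 higher and 3 lower in replicate 1, where 14.1% of the probes passed in either direction and no probe passed an adjusted p of 0.05 (0%, limma). The number rested on which array was left out. It was 2 without Col-0 replicate 2 (3.67% of the probes) and 6 without *AvSAMS1* TF replicate 2 (3.78% of the probes). Without Col-0 replicate 1 it was 28, where 48.5% of the probes passed, and 9578 probes and 23 of the 41 genes then passed the adjusted p, with *AvSAMS1* TF replicate 1 as the lone array of its replicate and assumed to vary like the rest. For untreated plants, 9 genes were higher and 3 lower in replicate 1 at an unadjusted p under 0.05, where 15.5% of the probes passed, and none of the 41 at an adjusted p. With the line as a block, 1054 probes and 5 of the 41 genes passed the adjusted p, *SRO5*, *PHI-1*, AT4G24110 and *PCO1* higher in replicate 1 and AT1G74940 lower. The replicates differed in plant pools, slides, version of the scanner software and, by the labels, in the day on which untreated plants were sampled, and these cannot be told apart. The day differs by the labels for untreated levels and ratios only, since Al was given for 2 days in both replicates.

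Other genes of the pathway and its neighbours were followed as lists, and no probe of any list passed the adjusted p for an Al response, since none on the array did. The 11 genes of the constitutive ERF-VII factors and the N-degron pathway, such as *RAP2.12*, *PRT6* and *ATE1*, had no member past 2-fold on any array, and their median log2 ratio lay between −0.04 and 0.09. Of these, *EBP* (*RAP2.3*) had the highest mean, with 0.07, 0.39, 0.21 and 0.29, and *ATE1* the lowest, with −0.04, −0.25, −0.52 and −0.21. Paralogues of the fermentation enzymes, with 13 of 14 past the filter, had medians of 0.38, 0.00, 0.09 and −0.06 in the same order of arrays. Among them, *SUS3* was highest, at 2.28, 2.77, −0.17 and 1.40, and *HB2*, the class 2 phytoglobin, lowest, at −1.30 and −1.19 in Col-0 and at 1.17 in *AvSAMS1* TF replicate 1, with a negative value again in *AvSAMS1* TF replicate 2.

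The alanine, GABA and aldehyde branch, which takes up carbon and nitrogen from glycolysis under low oxygen, had 9 of 10 genes past the filter. Its median log2 ratio was 0.27, 0.26, −0.68 and 0.33. In *AvSAMS1* TF replicate 1, 4 of its 9 genes were past 2-fold lower (11.1% of all loci), while *GAD2* was past 2-fold higher, at 1.74. Past 2-fold higher were 4 genes in Col-0 replicate 1 (11.8% of all loci), 3 in Col-0 replicate 2 (8.45%) and 3 in *AvSAMS1* TF replicate 2 (7.79%). On these arrays none was past 2-fold lower (9.77%, 7.67% and 6.47% of all loci). *GAD*, glutamate decarboxylase, had the highest mean, with 3.09, 2.37, −2.05 and 3.06, and *ALAAT2*, an alanine aminotransferase, the lowest, with 0.10, −0.02, −0.58 and −0.48. The 10 genes induced by darkness and carbon starvation had medians of −0.58, −0.38, −0.68 and −0.67. Of these *DIN2* was highest, with 1.99, 2.82, −3.24 and 2.35, and *SEN1* lowest, with −0.78, −1.08, −1.12 and −0.88. All these lists are described without a test of the list.

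**Figure D5:**
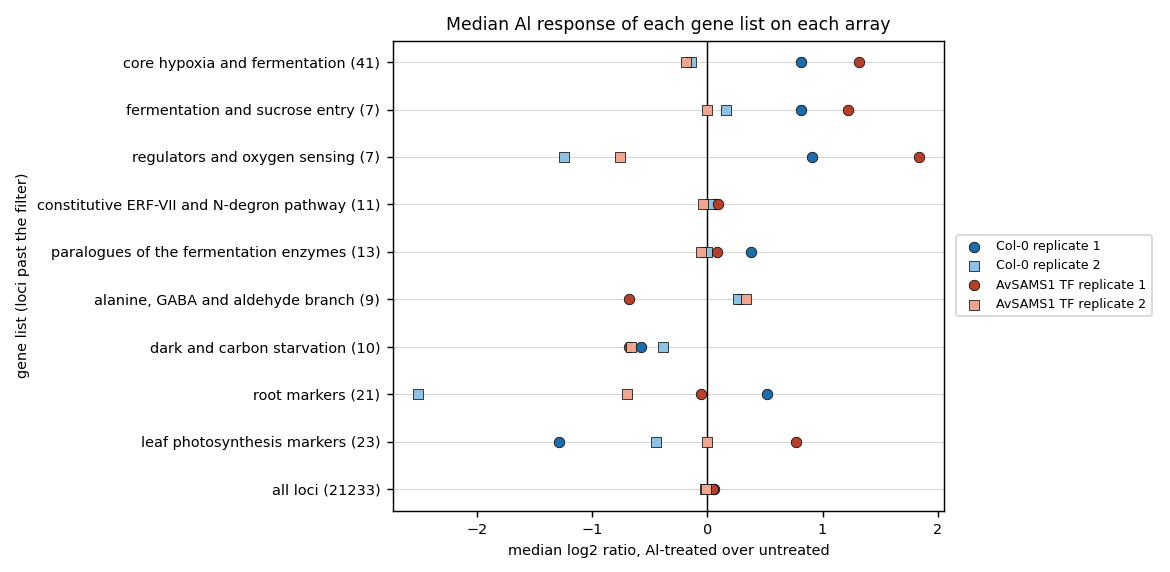
Median log2 ratio of Al-treated over untreated plants (horizontal axis) of each gene list (rows, with the number of loci past the filter) on the 4 arrays. The core hypoxia and fermentation genes lie at 0.81 and 1.31 in replicate 1 and at −0.14 and −0.19 in replicate 2, and the constitutive ERF-VII and N-degron genes stay near 0 on all arrays.

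Markers of roots and of green leaves also differed between samples, and the samples with low levels were not the same for both lists. The labels name whole plants, and the labelling protocol names shoots. Of 22 root markers, 21 passed the filter, and in untreated plants 10 and 13 of these were well above background in replicate 1 of Col-0 and *AvSAMS1* TF against 21 and 21 in replicate 2. Their summed untreated level was 22571 and 20858 in replicate 1 and 80741 and 63195 in replicate 2. In Al-treated plants it was 99615 and 36856 in replicate 1 and 59053 and 64547 in replicate 2, where the median difference between replicates was 0.11 on the log2 scale. The sums were carried by *PYK10*, a root beta-glucosidase, with untreated levels of 13.95 and 13.76 in replicate 1 and 15.85 and 15.69 in replicate 2. The median log2 ratio of the root markers was 0.51, −2.52, −0.05 and −0.70. The root hair genes *EXPA18* and *PRP1* were well above background in only 2 of the 8 samples. All 23 leaf photosynthesis markers were well above background in every sample. Their summed level was lowest in untreated *AvSAMS1* TF replicate 1, at 1940830, and in Al-treated Col-0 replicate 1, at 1981030, with values between 3170810 and 5697150 in the other samples. Their median log2 ratio was −1.29, −0.45, 0.77 and −0.00. The part of tissue make-up in the levels of the 41 genes was not tested.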

How the data were processed

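The experiment held 4 Agilent 2-colour arrays. The authors obtained the deposited log10 ratio of Cy5 over Cy3 with Feature Extraction (versions 11.0.1.1 and 10.7.1.1 in the file headers, 10.7.3.1 in the submitters' processing notes), after background subtraction and dye correction within the array. The deposited intensity values were its signals and flags, and the deposited series table held log2 ratios of the same signals. Columns of the P-value of LogRatio were not used.

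Ratios were converted to the log2 scale, control spots and outlier spots (10 to 23 an array) were dropped, and the mean was taken over spots that share a probe. Of 43603 probes, 34485 were paired with a locus through identifiers in the files, and symbols came from the RefSeq table of TAIR10.1. A probe was kept where 1 or both of its channels were well above background on 2 arrays or more, which left 34740. Levels were normexp-corrected (offset 50), loess-normalized within and Aquantile-normalized between arrays. The offset narrows differences of dim probes.

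Contrasts were fitted with limma 3.58.1 (lmFit, eBayes, R 4.3.3) over all 4 arrays, with Benjamini-Hochberg adjustment over all probes and 2 residual degrees of freedom. Arrays are few, which limits the precision. For fits by line, p-values measure the spread between 2 pools per line, which also differ in replicate number and what goes with it. For fits by replicate number without a block, they measure the spread between the 2 lines, which there stand in as replicates. By the labels a replicate number marks an experiment. The deviations of same-numbered arrays from the means of their lines correlated at 0.43 over 25775 probes. With 2 arrays per line, both replicate numbers give this same value by construction. The fits were first tested on simulated data.

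The 41 genes and the other lists were chosen with earlier results of these data known. Fully described were 27 genes, namely the main enzymes and regulators, any gene past 2-fold in 1 direction on both arrays of a line and any gene whose 2 arrays of a line differed by over 2 on the log2 scale. The other 14 are given by their ranges and ratios. Alternatives were other normalizations, filters, fold thresholds, tests and blocks, and each array left out. Sequences and promoter motifs were not analysed here.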

Additional observations from a re-analysis of the deposited data

How the results depend on the processing

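For the Al response in Col-0, in *AvSAMS1* TF and between the lines, 0 probes passed an adjusted p of 0.05 under every other background correction, normalization, filter, trend and block tried and with each array left out. A t-test of the 2 log2 ratios of a line against 0 called 1 probe in Col-0. It is not the procedure of the methods, which chose Student's or Welch's t-test after an F-test. Normexp with median centring shifted the median log2 ratio of all loci to 0.24 in Col-0 and 0.31 in *AvSAMS1* TF, so directions of small ratios are relative to it. For the Al response between replicates the methods' t-test called 1 probe, and 0 to 9578 passed with an array left out. Of the 41 genes, 20 passed the unadjusted p there (14.1% of the probes) and 8 with that t-test (10.6% of the probes). Their median difference in the ratio lay between 0.96 and 1.40 on the log2 scale with an array left out, against 0.02 to 0.10 over all loci. Between replicates in untreated plants, 0 probes passed, 1054 with the line as a block. Of the 41 genes, 12 passed the unadjusted p, 20 with that block and 7 to 23 with an array left out. Between the lines in untreated plants, 74 probes passed, 133 after quantile normalization of the processed signals, 367 with the replicate block and 0 to 0 with an array left out. In Al-treated plants 228 passed, 345 after quantile normalization, 248 with the replicate block and 0 to 0 with an array left out. No other count at the adjusted p changed with the block. Past 1.5-fold on both arrays were 5 genes higher and 2 lower in Col-0 and 2 lower in *AvSAMS1* TF. Past 3-fold were 0 genes lower in Col-0 and 1 higher in *AvSAMS1* TF. No share of all loci is given for 1.5-fold and 3-fold, so these counts describe the 41 genes only. The causes were not tested. Of the genes past 2-fold on both arrays of a line, none turned its direction. With an array left out, the mean log2 ratio of a line is that of its other array. It then changes sign by construction where the 2 arrays have opposite signs. These were the 26 of the 41 genes in Col-0 (34.4% of all loci) and 28 in *AvSAMS1* TF (60.1%) given above. Among them was *PDC1* in *AvSAMS1* TF, from 2.55 to −0.16. Under the other alternatives the mean log2 ratio changed sign for 8 genes in Col-0 and 9 in *AvSAMS1* TF. Dim probes and 2 arrays per line limit what could be called, and rules that need both arrays of a line allow no array to be left out.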
